A study of Solenopsis invicta with 12 samples.

Results

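The 22 genes described here are official genes of the fire ant Solenopsis invicta whose antennal transcript level was lowest in SB/Sb workers in every bioreplicate. They were chosen by the measured levels themselves. A gene of the official gene set was taken when its mean level over 12 libraries lay between 5 and 500 TPM (a transcript level scaled for transcript length and library size), when its TPM was strictly lowest in the SB/Sb library of each of 4 bioreplicates, and when the mean of the other 8 libraries was at least 1.5 times that of the 4 SB/Sb libraries. SINVm1_gene_00196 was left out by the same rule and would have been gene 23. The 22 genes were 0.265% of the 8317 official genes in that range of mean TPM, out of 15589 official genes and 19230 genes in the tables. Without the fold limit, and with SINVm1_gene_00196 counted, 44 of the 8317 genes (0.529%) were lowest in SB/Sb workers in all 4 bioreplicates. The same rule turned to the highest class found 45 genes for SB/Sb workers, and turned to the lowest class found 114 genes for monogyne workers.

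Each library held RNA from pooled antennae of workers of 1 genotype and 1 colony, amplified with the NuGEN Ovation V.2 kit before sequencing. The 3 worker classes were SB/SB workers of monogyne colonies (M_BB), SB/SB workers of polygyne colonies (P_BB) and SB/Sb workers of polygyne colonies (P_Bb), with 4 libraries each, numbered as bioreplicates 2, 3, 6 and 7. The P_BB and P_Bb libraries of a number came from nestmates of 1 polygyne colony, and workers of a separate monogyne colony gave the M_BB library. All workers were foragers attracted with honey, and the pools mix whole antennae, so fewer cells of a type and less RNA per cell cannot be told apart.

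The antenna is the main organ of smell and taste of an ant, and it carries the sensory neurons with which workers recognise queens and nestmates. In S. invicta the variants SB and Sb of a supergene, a block of linked genes inherited together and marked by Gp-9, go with the social form of the colony. Monogyne colonies, with a single queen, hold SB/SB workers, whereas polygyne colonies, with several queens, hold workers of both genotypes. SB/Sb workers are known for tolerating queens that carry Sb and attacking queens that do not.

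The sources used here give no symbol, function, position or sequence for the 22 identifiers, so the genes are described by identifier, length, level and read support. Depth was 1662249 to 4101327 expected counts per library, an expected count being RSEM's estimate of the reads that belong to a gene. Genes that the study names were used to check the labels. SINVm1_gene_02111 (SiOBP12, an odorant-binding protein) was at 28.58 to 104.76 TPM in P_Bb, 0 to 10.25 TPM in P_BB and 0 to 1.97 TPM in M_BB. XLOC_016888 (SiOR463, an odorant receptor) was at 3.94 to 8.16 TPM in P_Bb, below its 11.53 to 13.71 TPM in P_BB and its 10.63 to 16 TPM in M_BB. Both genes separated the P_Bb libraries from the other 8, and another chemosensory gene, SINVm1_gene_13698 (SiOR462, an odorant receptor), was at 6.59 TPM or less in every library.

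Added over the 22 genes, the level was 529 to 674 TPM in the M_BB libraries, 420 to 501 TPM in P_BB and 229 to 283 TPM in P_Bb. The classes were ordered in this way by the rule for P_Bb, so the gap between P_Bb and the others is a description of the selected genes and carries no test. Genes of high level weigh most in these sums. SINVm1_gene_07743 alone had means of 148 TPM in M_BB, 124 TPM in P_BB and 88.4 TPM in P_Bb. Gene by gene, the mean of M_BB was above that of P_BB in 14 of the 22 genes and below it in 8. All 22 genes had counts in each of the 8 SB/SB libraries, as the strictly lowest rank of P_Bb requires. Counts were present for 18, 20, 21 and 20 of them in P_Bb bioreplicates 2, 3, 6 and 7, and nothing is read from this difference. The ratio of the mean of the 8 SB/SB libraries to the mean of P_Bb ran from 1.54 to 3.98 with a median of 2.06 over 21 genes. SINVm1_gene_13180, with no count in P_Bb, had no finite ratio. Of the 21 ratios, 12 were at least 2.

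**Figure D1:**
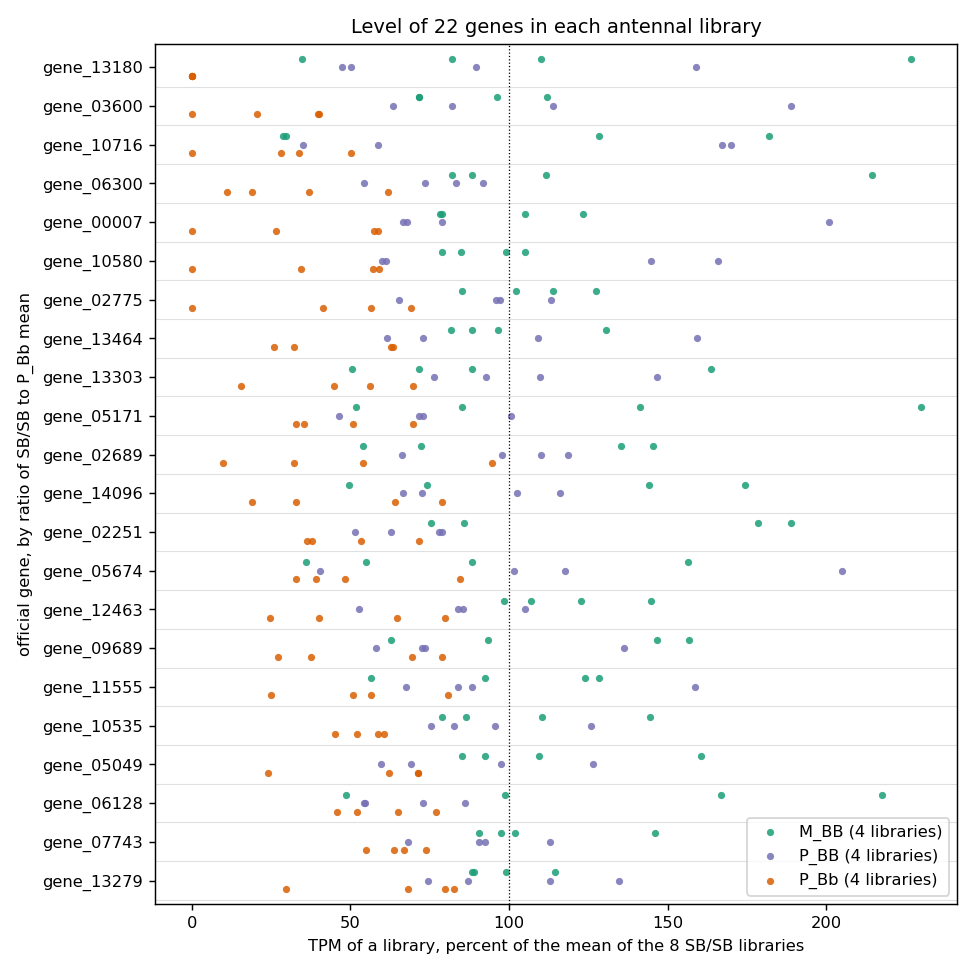
Level of the 22 genes in each of the 12 antennal libraries. The x axis gives the TPM of a library as a percent of that gene's mean over the 8 SB/SB libraries (dotted line at 100%), and the y axis lists the genes with the largest ratio of SB/SB to P_Bb mean at the top. Each point is 1 library (green M_BB, purple P_BB, orange P_Bb). P_Bb points lie at the left of each row as the selection requires, and in 5 rows all 4 P_Bb points lie left of the other 8.

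The selection compared libraries only within a bioreplicate, and the genes differed in how far the classes separated across bioreplicates. In 5 of the 22 genes every P_Bb library was below all 8 others, which held for 0.0842% of the 8317 official genes of the same TPM range. These were SINVm1_gene_13180, SINVm1_gene_03600, SINVm1_gene_00007, SINVm1_gene_10580 and SINVm1_gene_10535. Their separation rests on few reads, with 0, 4, 8, 7 and 20 counts over all P_Bb libraries, in that order. None of these 5 genes passed the filter on low counts of the count model given below. Against P_BB alone 6 genes separated (0.493% of the 8317), the sixth being SINVm1_gene_13303, and against M_BB alone 13 genes separated (1.26%). These shares use the same contrast as the selection, so nothing is read from their difference. In the other 17 genes at least 1 P_Bb library overlapped with an SB/SB library of another bioreplicate.

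SINVm1_gene_13180, the shortest of the 22 genes with 225 bases, was the only one with no count in any P_Bb library. It was at 32.33, 89.24, 13.65 and 43.42 TPM in M_BB bioreplicates 2, 3, 6 and 7 and at 19.79, 62.66, 35.31 and 18.65 TPM in P_BB. These levels rest on 1 to 5 counts per library, 18 in all, because RSEM's effective length of so short a gene was only 25.6 to 37.7 bases and a single read is then worth many TPM. The 3 counts that a count of 0 allows in each P_Bb library correspond to a mean of 55.9 TPM, above the SB/SB mean of 39.4 TPM, so no fold difference is given. A count of 0 in all 4 P_Bb libraries was found for 34 of the 8317 genes (0.409%).

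SINVm1_gene_03600 (447 bases) had the largest finite ratio. It was at 6.62, 8.86, 10.33 and 6.60 TPM in M_BB, at 7.58, 10.51, 5.84 and 17.42 TPM in P_BB and at 0, 1.89, 3.67 and 3.71 TPM in P_Bb. Every P_Bb library was below every SB/SB library, and P_BB bioreplicate 7 stood highest. The class means were 8.10 ± 1.82, 10.3 ± 5.10 and 2.32 ± 1.76 TPM (SD, n = 4 each), a ratio of 3.98 that ranged from 2.98 to 4.97 with a library left out. The ratio of its counts, 33 in SB/SB against 4 in P_Bb and scaled for depth, was 4.14. Its exact 95% interval of 1.47 to 16.1 covers counting error only. The selection used the same reads, so this and the count intervals given below carry no test. SINVm1_gene_03600 was also the gene with the least certain read assignment, with RSEM's posterior SD of the count reaching 2.19 in a library. That SD was at most 0.58 in the other 21 genes. For SINVm1_gene_03600 the lower bound of RSEM's credibility interval was near 0 in SB/SB workers too. It was 2.47e-05 to 0.00761 TPM in M_BB and 0.000252 to 0.247 TPM in P_BB. The ratio and the count interval do not cover this uncertainty of assignment.

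SINVm1_gene_10716 (354 bases) was at 3.61, 3.48, 22.08 and 15.59 TPM in M_BB, at 4.25, 20.63, 7.13 and 20.28 TPM in P_BB and at 3.40, 0, 6.08 and 4.11 TPM in P_Bb. Both SB/SB classes varied several-fold among libraries, on only 0.94 to 8.01 counts per library. In bioreplicate 2 the 3 classes were close together, with 1.01, 1.02 and 1 counts in M_BB, P_BB and P_Bb. The means were 11.2 ± 9.22, 13.1 ± 8.61 and 3.40 ± 2.53 TPM (SD, n = 4 each), a ratio of 3.57. P_Bb lay below the next library by 0.0617, 0.711, 0.346 and 2.8 reads in bioreplicates 2, 3, 6 and 7, so its lowest rank rests on less than 1 read in 3 of the 4.

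SINVm1_gene_06300 (852 bases) was at 21.36, 11.14, 8.19 and 8.80 TPM in M_BB, at 7.34, 5.42, 8.30 and 9.16 TPM in P_BB and at 3.70, 1.10, 1.90 and 6.18 TPM in P_Bb. Each P_Bb library was below all M_BB libraries, and P_Bb bioreplicate 7 was above P_BB bioreplicate 3. The means were 12.4 ± 6.13, 7.55 ± 1.61 and 3.22 ± 2.25 TPM (SD, n = 4 each), so that P_Bb was 3.84-fold below M_BB and 2.35-fold below P_BB. With 97 counts in SB/SB and 16 in P_Bb, its count ratio of 3.09 had an exact 95% interval of 1.81 to 5.61, for counting error only.

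SINVm1_gene_00007 (423 bases) was at 14.71, 17.30, 11.04 and 10.95 TPM in M_BB, at 28.16, 9.35, 9.49 and 11.07 TPM in P_BB and at 0, 3.74, 8.06 and 8.22 TPM in P_Bb. P_Bb did not overlap with the other classes, and bioreplicate 2 held both the highest P_BB value and the lowest P_Bb value, in nestmates of 1 colony. The ratio of 2.8 became 2.10 without P_Bb bioreplicate 2. SINVm1_gene_10580 was at 12.98, 10.49, 9.77 and 12.27 TPM in M_BB, at 17.92, 7.43, 7.56 and 20.52 TPM in P_BB and at 7.29, 7.05, 4.28 and 0 TPM in P_Bb. Here too P_Bb did not overlap with the other classes, but it was below P_BB in bioreplicate 3 by only 0.108 reads, and the gene was not selected when TMM-scaled counts replaced TPM.

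Among the 4 genes with the highest mean TPM the ratio was 1.54 to 2.10. SINVm1_gene_07743 (339 bases, mean 120 TPM) was at 198.92, 123.27, 132.49 and 138.82 TPM in M_BB, at 92.82, 125.71, 123.14 and 153.49 TPM in P_BB and at 91.04, 86.98, 74.80 and 100.62 TPM in P_Bb. The P_Bb values were below all M_BB values, and of the P_Bb libraries only bioreplicate 7 lay within the range of P_BB. In bioreplicate 2 both nestmate libraries were nearly equal and M_BB was the highest of all. The means were 148 ± 34.3, 124 ± 24.8 and 88.4 ± 10.7 TPM (SD, n = 4 each), and the ratio of 1.54 fell to 1.44 without M_BB bioreplicate 2, under the limit of 1.5.

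SINVm1_gene_02251 (441 bases) was at 105.07, 47.74, 41.87 and 99.27 TPM in M_BB, at 28.53, 43.88, 34.88 and 43.39 TPM in P_BB and at 21.07, 39.86, 29.58 and 20.17 TPM in P_Bb. The high M_BB values were in bioreplicates 2 and 7, and the P_BB and P_Bb ranges overlapped. Its ratio was 2.66 to M_BB and 1.36 to P_BB. SINVm1_gene_14096 (387 bases) was at 73.46, 20.92, 31.23 and 60.75 TPM in M_BB, at 30.55, 28.07, 48.88 and 43.20 TPM in P_BB and at 13.83, 7.99, 26.95 and 33.18 TPM in P_Bb. Here too M_BB was highest in bioreplicates 2 and 7, the 2 M_BB libraries whose names start with LGC16 and not LGC. In edgeR, P_Bb minus the mean of M_BB and P_BB for SINVm1_gene_14096 was -1.17 (log2), and -1.01 with this name prefix in the model. The prefix term itself was not tested. SINVm1_gene_02689 (432 bases) was at 23.55, 47.37, 44.05 and 17.55 TPM in M_BB, at 21.60, 35.90, 38.61 and 31.87 TPM in P_BB and at 17.56, 3.19, 30.85 and 10.51 TPM in P_Bb. Its P_Bb values spread from 3.19 to 30.85 TPM and overlapped with both other classes.

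SINVm1_gene_05171 stood apart in read support and is named after its values were seen. With 9603 bases it was the longest of the 22 genes, and it was at 19.30, 11.76, 52.11 and 32.05 TPM in M_BB, at 22.80, 16.52, 10.53 and 16.27 TPM in P_BB and at 15.78, 7.44, 8.04 and 11.56 TPM in P_Bb. P_Bb bioreplicates 2 and 7 lay within the range of P_BB, and M_BB bioreplicate 6 was far above the other M_BB libraries. The gene had 3417 counts in SB/SB, 1335 of them in M_BB bioreplicate 6, and 804 in P_Bb. The count ratio was 2.18 with an exact 95% interval of 2.02 to 2.36, which covers counting error and not the spread between libraries. With that spread, edgeR's quasi-likelihood test gave P_Bb minus the mean of M_BB and P_BB as -1.09 ± 0.39 (log2, SE, adjusted p = 0.999). P_Bb lay below the next library of its bioreplicate by 58.1 to 79.3 reads. SINVm1_gene_05171 was the only gene of the 22 with a gap over 10 reads in all 4. The ratio was 1.54 to P_BB and 2.69 to M_BB, and the ratio over both SB/SB classes fell from 2.12 to 1.72 without M_BB bioreplicate 6.

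Of the remaining genes, SINVm1_gene_02775 was at 10.52 to 15.74 TPM in M_BB, 8.06 to 14.01 TPM in P_BB and 0 to 8.53 TPM in P_Bb. SINVm1_gene_13464 was at 9.30 to 14.86 TPM in M_BB, 7.01 to 18.11 TPM in P_BB and 2.95 to 7.23 TPM in P_Bb. SINVm1_gene_13303 was at 11.78 to 38.11 TPM in M_BB, 17.76 to 34.15 TPM in P_BB and 3.63 to 16.23 TPM in P_Bb. The ratios of these 3 genes were 2.39, 2.17 and 2.15, and SINVm1_gene_13464 rested on the most counts of them, 327 in SB/SB and 76 in P_Bb. SINVm1_gene_12463 was at 8.40 to 12.34 TPM in M_BB, 4.51 to 8.95 TPM in P_BB and 2.10 to 6.81 TPM in P_Bb. SINVm1_gene_09689 was at 10.36 to 25.90 TPM in M_BB, 9.58 to 22.54 TPM in P_BB and 4.50 to 13.02 TPM in P_Bb. SINVm1_gene_11555 was at 10.81 to 24.55 TPM in M_BB, 12.91 to 30.34 TPM in P_BB and 4.80 to 15.46 TPM in P_Bb. SINVm1_gene_12463 alone of these 3 had all P_Bb values below all M_BB values. SINVm1_gene_05049 was at 7.46 to 14.07 TPM in M_BB, 5.22 to 11.09 TPM in P_BB and 2.10 to 6.27 TPM in P_Bb. Its low end in P_Bb was bioreplicate 2, without which its ratio of 1.75 became 1.46.

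Near the limits of the rule, SINVm1_gene_13279 was the last gene inside the fold limit with a ratio of 1.54. It was at 13.24, 11.88, 15.31 and 11.83 TPM in M_BB, at 18.00, 11.65, 15.10 and 9.97 TPM in P_BB and at 11.05, 3.97, 10.66 and 9.10 TPM in P_Bb. Bioreplicate 3 of P_Bb was far below the other 3, and the ratio was 1.3 without it. Just outside were SINVm1_gene_11662, with a ratio of 1.49 at a mean of 5.89 TPM, and SINVm1_gene_09613, with a ratio of 1.47 at 14.7 TPM. Near the lower limit of level, SINVm1_gene_05674 (mean 5.62 TPM) was at 2.42, 5.92, 10.48 and 3.68 TPM in M_BB, at 6.81, 13.74, 7.88 and 2.71 TPM in P_BB and at 2.2, 3.24, 5.68 and 2.63 TPM in P_Bb. In bioreplicate 7 all 3 classes of this gene were low, and P_Bb lay below P_BB by 0.0609 reads. SINVm1_gene_10535 (mean 5.81 TPM) was at 5.42, 7.58, 9.91 and 5.94 TPM in M_BB, at 5.17, 6.56, 5.68 and 8.64 TPM in P_BB and at 4.03, 3.10, 3.57 and 4.15 TPM in P_Bb. Its P_Bb values lay close together, 3.71 ± 0.479 TPM (SD, n = 4), and below all others. They rest on 3 to 6 counts per library, so nothing is read from their closeness. Just under the level limit were SINVm1_gene_11390 (2.95 TPM, ratio 1.76) and SINVm1_gene_00472 (2.61 TPM, ratio 1.69). The upper limit of 500 TPM kept out no gene, and the nearest gene below it was SINVm1_gene_07743.

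The nestmate comparison holds the colony constant, whereas the comparison with M_BB also changes the colony and the social form. The 2 comparisons share the P_Bb libraries. P_Bb had a median of 59.8% of the nestmate P_BB level over the 88 gene and bioreplicate pairs, and a median of 53.3% of the M_BB level. Against P_BB the median over genes was 54.1% in bioreplicate 2, 40.4% in bioreplicate 3, 67.1% in bioreplicate 6 and 62.4% in bioreplicate 7. Against M_BB it was 43.3%, 39.5%, 53.5% and 60.3% in the same order. Bioreplicate 3 had the lowest median in both, and its P_Bb library was the shallowest of P_Bb, with 2373104 expected counts.

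By class means, the median ratio over 21 genes was 1.87 to P_BB and 2.22 to M_BB. A ratio of at least 1.5 was reached by all 21 against M_BB and by 18 against P_BB. The 3 exceptions were SINVm1_gene_06128 (1.12), SINVm1_gene_02251 (1.36) and SINVm1_gene_07743 (1.40). SINVm1_gene_06128 (1452 bases) was at 24.66, 32.20, 14.63 and 7.20 TPM in M_BB, at 12.73, 10.79, 8.09 and 8.03 TPM in P_BB and at 11.38, 9.60, 7.72 and 6.79 TPM in P_Bb. Nestmates of the 2 genotypes were close to each other in every colony, and the ratio of 1.67 rested on M_BB bioreplicates 2 and 3. Without M_BB bioreplicate 3 it was 1.39.

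**Figure D2:**
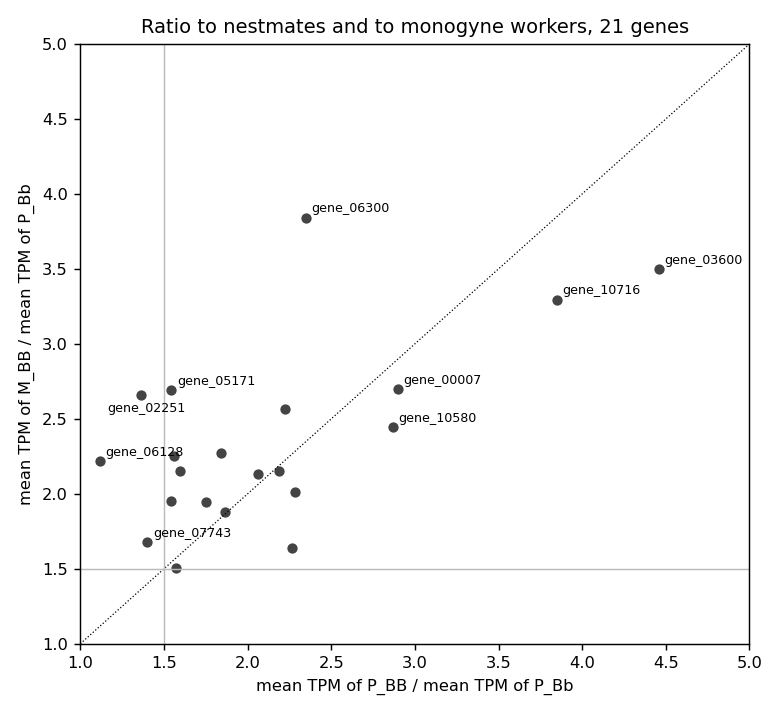
Ratio of class means for the 21 genes with counts in P_Bb. The x axis gives the mean TPM of P_BB over that of P_Bb and the y axis the mean TPM of M_BB over that of P_Bb; grey lines mark 1.5 and the dotted line marks equal ratios. All genes lie above 1.5 on the y axis, 3 genes lie under 1.5 on the x axis, and SINVm1_gene_03600 is farthest right.

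The rank of P_Bb within a bioreplicate often rested on few reads. Expressed in reads of the P_Bb library, the gap between P_Bb and the lower of M_BB and P_BB was at most 1 read in 16 of the 88 gene and bioreplicate pairs and at most 3 reads in 47. At least 1 gap of 1 read or less was present in 10 genes, and at least 1 gap of 3 reads or less in 20 genes. The 2 genes without one were SINVm1_gene_05171 and SINVm1_gene_13464. RSEM's credibility interval of the P_Bb level lay wholly below those of both other libraries in 6 of the 88 pairs, spread over 5 genes, and in no gene in all 4 bioreplicates. The share of such pairs among the 8317 official genes was not computed, so nothing is read from this count. Of the 22 genes, 11 had at most 10 counts in every P_Bb library, and 6 had no count in at least 1 of them, as did 5.84% of the 8317 official genes.

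**Figure D3:**
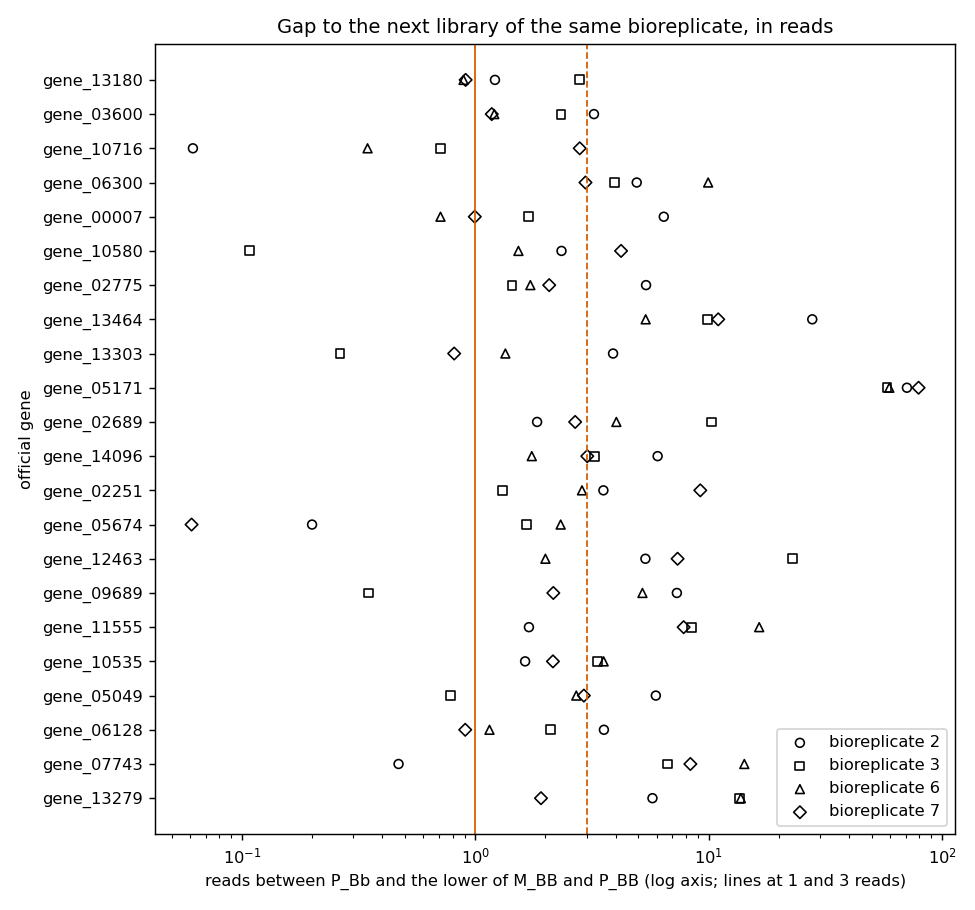
Distance in reads from P_Bb to the next higher library of the same bioreplicate, for the 22 genes. The x axis (log scale) gives reads, with lines at 1 and 3 reads, and each symbol is 1 bioreplicate. In 47 of the 88 pairs the distance was at most 3 reads, and SINVm1_gene_05171 alone lies above 50 reads in all 4.

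Short length and low counts were features that the rule did not use directly. The median length of the 22 genes was 519 bases (upper quartile 1068), against 1185 bases (upper quartile 2127) for the 8317 official genes of the same TPM range. Of the 22 genes 11 (50%) were under 500 bases, compared with 16.8% of the 8317. The median expected count per library was 10.4 against 61.5, and 15 genes (68.2%) had a mean under 20 counts per library against 25.4%. Genes of few counts vary more between libraries by counting alone, and the part of this in the selection was not tested. The 45 genes highest in P_Bb by the mirrored rule had a median length of 624 bases and a median count of 15.3, and the 114 genes lowest in M_BB had 888 bases and 36.1 counts.

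**Figure D4:**
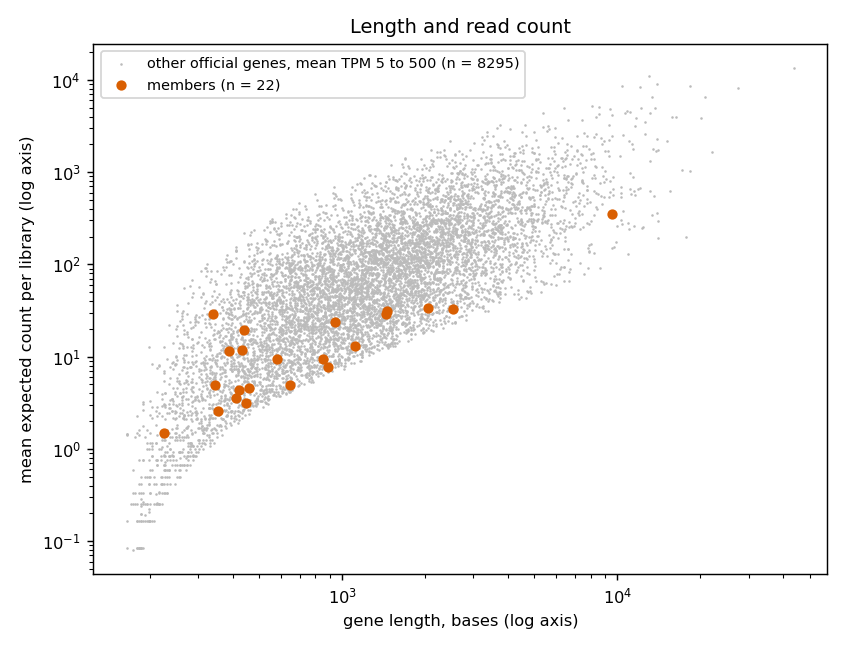
Gene length and mean expected count per library for official genes with a mean of 5 to 500 TPM. Both axes are logarithmic, in bases (x) and counts (y); orange points are the 22 genes and grey points the other official genes. Most orange points lie at the lower left, with a median of 519 bases and 10.4 counts, and SINVm1_gene_05171 lies alone at 9603 bases.

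The median level of the 22 genes was 11.4 TPM against 33.7 TPM for the 8317 genes. A mean under 20 TPM was found for 17 of the 22 genes and a mean over 50 TPM for 1. Expected counts were whole numbers in all libraries, within 0.005, for 13 of the 22 genes. The other 9 genes (40.9%) had fractional counts, which arise where reads are shared with another gene, against 64.2% of the 8317. SINVm1_gene_05674 was the single gene with more than 1 transcript. Among the 8 SB/SB libraries the median coefficient of variation was 39.4% for the 22 genes and 35.1% for the 8317.

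In the count model across all genes, 13 of the 22 genes passed the filter on low counts and 9 did not, among the latter SINVm1_gene_13180 and 4 of the 5 genes with the largest finite ratios. As the selection used this contrast, the values are a description. P_Bb minus the mean of M_BB and P_BB was -1.66 ± 0.52 (log2, SE) in SINVm1_gene_06300 at one end and -0.68 ± 0.31 in SINVm1_gene_13279 at the other, with a median of -0.97 beside -0.01 for the 10503 genes tested. With edgeR's quasi-likelihood test and p-values adjusted by Benjamini-Hochberg over all genes, 0 of the 13 genes passed an adjusted p of 0.05 as lower, beside 0.00952% of all tested genes. An unadjusted p under 0.05 was found for 11 of the 13 genes, beside 1.24% that were lower in P_Bb among all tested genes, and for 6 of 13 without P_Bb bioreplicate 6. DESeq2 and limma also passed 0 of the 13.

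The rule gave P_BB and M_BB the same place, but it used the values of both, and P_BB shares its colonies with P_Bb. The comparison of P_BB with M_BB is therefore not free of the selection and is given as a description. The mean of M_BB was above that of P_BB in 14 of the 22 genes, against 50.4% of the 8317 official genes, and P_BB was higher in 8. In none of the 22 did the M_BB and P_BB libraries separate without overlap, which held for 1.78% of the 8317. By the same edgeR test and adjustment 0 of the 13 tested genes differed between P_BB and M_BB, beside 0% of the 10503 genes, and DESeq2 and limma passed 0 of the 13 as well. At an unadjusted p under 0.05 there were 2 of the 13 genes, beside 4.81% of all genes. There were 0 without M_BB bioreplicate 2, 0 without P_BB bioreplicate 6 and 1 without bioreplicate 7 of either class.

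These 2 genes were SINVm1_gene_02251 and SINVm1_gene_06128, both lower in P_BB than in M_BB. The difference was -1.11 ± 0.45 (log2, SE, edgeR adjusted p = 0.888) in SINVm1_gene_02251 and -1.03 ± 0.42 (edgeR adjusted p = 0.888) in SINVm1_gene_06128. Neither passed the adjusted threshold, and with the library name prefix in the model the differences were -0.82 and -1.11. Of the 13 genes 11 had a negative difference and 2 a positive one, with a median of -0.47 beside -0.02 for all tested genes. The highest difference was 0.02 in SINVm1_gene_13279, whose M_BB and P_BB means were 13.1 ± 1.63 and 13.7 ± 3.59 TPM (SD, n = 4 each).

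**Figure D5:**
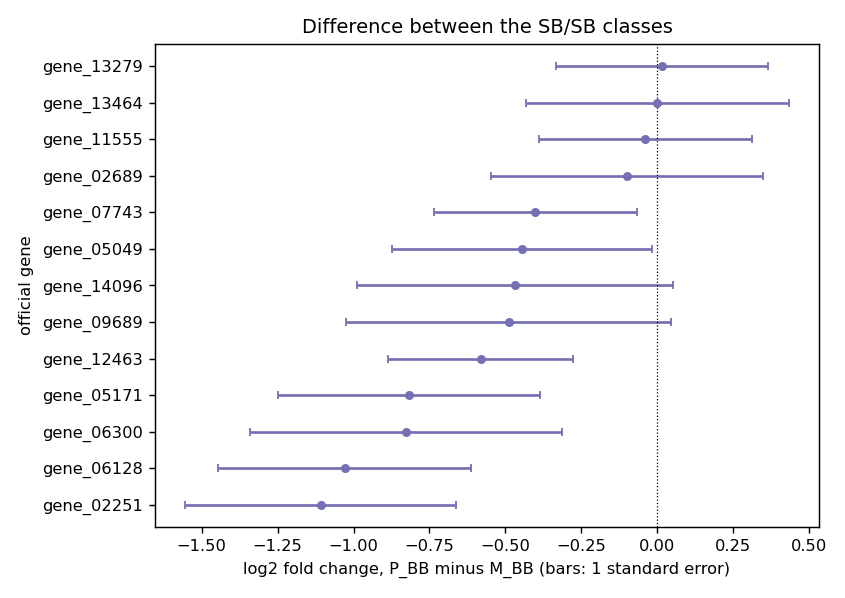
Difference between the 2 SB/SB classes in the 13 genes that passed the filter on low counts. The x axis gives the log2 fold change of P_BB minus M_BB from edgeR, bars show 1 standard error, and the y axis lists the genes. Values run from -1.11 in SINVm1_gene_02251 to 0.02 in SINVm1_gene_13279, 11 of them under 0, and none passed the adjusted threshold.

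The rule ranked libraries within bioreplicates, but its fold limit used means over them. Some genes met that limit only through 1 library, among them SINVm1_gene_13279, SINVm1_gene_05049, SINVm1_gene_06128 and SINVm1_gene_07743, so the levels between bioreplicates are a description too. Among the 21 genes with counts in P_Bb, the lowest P_Bb library was bioreplicate 3 in 9 genes, bioreplicate 2 in 7, bioreplicate 7 in 3 and bioreplicate 6 in 2. In M_BB the highest library was bioreplicate 6 in 8 genes, bioreplicate 2 in 7, bioreplicate 3 in 5 and bioreplicate 7 in 2. In P_BB the highest library was bioreplicate 6 in 4 genes and each of the others in 6, so no single bioreplicate was the high one throughout. The F test of the bioreplicate terms in edgeR, with class in the model, passed 0 of the 13 tested genes at an adjusted p under 0.05, beside 0.00952% of the 10503 genes, and 1 gene at an unadjusted p under 0.05, beside 15.4%. DESeq2 and limma passed 0 of the 13. The single gene was SINVm1_gene_06128 (edgeR adjusted p = 0.237), whose level was lowest in bioreplicate 7 in all 3 classes.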

How the data were processed

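Antennal RNA of S. invicta workers was analysed in 12 libraries. The authors trimmed reads with cutadapt, mapped them with Bowtie onto the official gene set plus assembled transcripts, and ran RSEM separately on each library. For every gene the authors deposited an expected count, unscaled, and a TPM value. Other deposited columns hold gene length, effective length, posterior SD of the count and TPM credibility bounds, whose level is not given in the sources used here. An exon annotation without official identifiers was not used. Duplicate reads are not stated to have been removed, and reads of amplified RNA are not independent molecules, so counting intervals cover counting error only. The share of duplicate reads that the paper reports was uneven, highest in P_Bb bioreplicate 7 and lowest in P_Bb bioreplicate 6. Read gaps and count ratios were not corrected for it.

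Genes were selected on deposited TPM by the rule given above. The genes, the rule and the tests were chosen with earlier results of these data known. Described in full were the 6 genes with the largest ratio (SINVm1_gene_13180, with none in P_Bb, taken as the first), the 4 of highest mean TPM, the 2 with the largest difference between P_BB and M_BB, those passing a test, and those nearest the limits of the rule. Gene names and functions were sought in the paper's tables and in RefSeq and matched 0 of the 22 genes, so lists by function were not made. The paper's table of differentially expressed genes therefore held 0 of the 22. It did hold SINVm1_gene_00196, the gene left out, as higher in SB/SB workers. A gap in TPM was turned into reads with the TPM that 1 read is worth. Expected counts were rounded and fitted across 10503 genes with edgeR 4.0.16 (R 4.3.3; TMM, filterByExpr, quasi-likelihood test) on class, as the authors' EBSeq analysis used no block. DESeq2 1.42.0 and limma 3.58.1 on log2(TPM + 1) or log2(TPM + 0.1), other scalings and filters, terms for the bioreplicate or for the library name prefix, and left-out libraries were alternatives. The SE given with an edgeR difference was derived from the test, as the absolute log2 fold change over the square root of F. Models were tested on simulated counts with changes of 2 (log2) planted in P_BB against M_BB or in bioreplicate 3. The edgeR fit on class recovered 81.5% of the first, and the fit with bioreplicate terms 64.5% of the second. These fits passed 6 and 8 genes without a planted change, and DESeq2 passed 20 and 47. No genotype difference was planted, so recovery of differences like those of the 22 genes was not tested. Differences of P_BB minus M_BB in the 13 tested genes were smaller than those planted, at -1.11 to 0.02, and recovery at that size was not tested either. The other steps used Python 3.11.15 with pandas 2.3.3 and scipy 1.17.1.

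Libraries of the same number are paired: P_Bb and P_BB workers were nestmates, and the matching monogyne colony was sampled on the same days. Deviations of same-numbered libraries from class means correlated across genes with a median of 0.233 (-0.362 to 0.65), and those of nestmate libraries with a median of 0.402 (0.0846 to 0.65), against -0.0876 for different numbers. Genes are not independent replicates.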

Additional observations from a re-analysis of the deposited data

Results flagged for a closer look

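In SINVm1_gene_00007 the P_BB library of bioreplicate 2 stood far from the other 3 of its class, at 28.16 TPM against 9.35, 9.49 and 11.07 TPM. Its distance to the nearest was 0.909 of the whole range, over Dixon's critical value for 4 libraries, and the value rests on 10 counts. This was 1 of 65 groups examined, and chance marks about 1 in 20.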

How the results depend on the processing

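The number of genes selected depended on every part of the rule. It was 22 as reported, 36 at a lower fold limit, 13 at 2-fold (SINVm1_gene_13180, at 0 in P_Bb, among them) and 27 with a mean of 1 to 500 TPM. With 1 of the 4 bioreplicates left out it was 55 (without bioreplicate 3) to 113 (without bioreplicate 2), with 19 to 22 of the 22 genes among them, as fewer conditions admit more genes. Alternatives added after seeing the data gave 82 genes from nestmates only (19 shared) and 27 to 61 with a single SB/SB library left out, 61 without P_BB bioreplicate 2 and 39 without M_BB bioreplicate 2 or P_BB bioreplicate 7. TMM-scaled counts gave 37 genes and lost SINVm1_gene_02251, SINVm1_gene_09689, SINVm1_gene_10580 and SINVm1_gene_13303. Of the 22 genes, 13 remained under each left-out SB/SB library or bioreplicate and with TMM-scaled counts. Leaving out libraries only removes rank conditions, so in those alternatives a gene could be lost through the fold limit alone. No P_Bb library was left out alone in the rule.

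In the count models 0 of the members tested passed for genotype, for P_BB against M_BB or for the bioreplicate terms under any setting run. P_Bb against each SB/SB class alone was not compared across settings. The 290 alternative values of single members kept their direction and their side of the threshold. They covered genotype for the 13 members that passed the filter on low counts, and P_BB against M_BB for SINVm1_gene_02251 and SINVm1_gene_06128. Over all genes the genotype comparison passed 24, and 4 with at least 10 counts in every library, 37 with DESeq2, 10 with limma on log2(TPM + 0.1) and 18 to 26 with a library left out. P_BB against M_BB passed 0, 8 with DESeq2, and 0 to 1 with a library left out, the 1 without M_BB bioreplicate 3. With the replicate block these counts were 22 and 0, and the block changed no call of a member. The bioreplicate terms passed 1 gene, 46 without the filter, 416 with DESeq2, 194 with the library name prefix, and 0 to 388 with a library left out, among them 388 without P_Bb bioreplicate 3 and 175 without M_BB bioreplicate 3; the cause was not tested. The median length of the background genes was 1185 bases, and 1422 with the filter on low counts.

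Depth limits most of the 22 genes: 10 had under 20 counts in the 4 P_Bb libraries together, and 9 did not pass the filter on low counts, though all 22 were fitted without it.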
